A study of Mus musculus with 3 samples.

Results

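Kruppel-like factors (Klf genes) were examined in LT-HSCs, long-term hematopoietic stem cells, from which all blood lineages of the mouse are rebuilt for life. The genes described are Klf2, Klf3, Klf4, Klf6, Klf7, Klf9, Klf10, Klf12 and Klf13, chosen by name and read at every probe that carries one of these names. They are 9 of 37323 genes and 20 of 56600 probes on the array. Total RNA of sorted LT-HSCs carried a Cy3 label on Agilent arrays of the whole genome, with 1 array for each of 3 genotypes of C57BL/6J mice. WT mice were controls, in AtmsKO mice Atm had been deleted, the gene of a kinase activated by DNA breaks, and in Atmp38dKO mice Mapk14, the gene of p38α, had been deleted as well. The deleted mice carried CAG-CreERT2, a ubiquitously driven Cre that enters the nucleus with tamoxifen, together with Atm flox/flox alleles (AtmsKO), and for Atmp38dKO with p38α flox/flox alleles in addition, so Cre acted in all tissues and not in blood cells alone. All mice received tamoxifen, and per the study's methods the controls carried no Cre. The labels state an age of 11 weeks, whereas the series text places tamoxifen at about 5 weeks of age and the analysis 4 weeks later. Surface markers of the sort also differ between sources, which name CD150+CD48-Flt3-CD34- LSK cells (labels), CD34- and Flt3- only (series text), or CD41- in addition to the label's markers (methods). Mice of both sexes were used, and how many mice gave the RNA of an array was not given. With 1 array in each group there were no replicates, so no p-value is given, and every comparison is between single arrays and not between the conditions.

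Klf proteins are transcription factors that share a C-terminal block of zinc fingers and bind GC-rich and CACCC sequences, where they compete with each other and with the related Sp factors. They fall into a group of mostly activators (Klf2, Klf4, Klf6 and Klf7 here), a group that represses through the co-repressor CtBP (Klf3 and Klf12), and a group that recruits the co-repressor Sin3 (Klf9, Klf10 and Klf13). In blood, Klf2 is known for holding T cells in quiescence, Klf4 for monocyte differentiation and reprogramming to pluripotency, and several of the genes are switched on within minutes of a stimulus, as immediate early genes are.

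To show the DNA on which the brightest of these genes sit, the 250 bases before the RefSeq start of Klf2, Klf4 and Klf6 are given in the direction of the gene (RefSeq, GRCm38.p6), since Klf4 and Klf6 were lower and Klf2 was not on the third array. Capitals mark GC boxes, CCAAT boxes, E boxes, the core of a cyclic AMP response element and the binding motif of MEF2 factors, each searched on both strands.
Klf2, chr8:72318812-72319061, plus strand: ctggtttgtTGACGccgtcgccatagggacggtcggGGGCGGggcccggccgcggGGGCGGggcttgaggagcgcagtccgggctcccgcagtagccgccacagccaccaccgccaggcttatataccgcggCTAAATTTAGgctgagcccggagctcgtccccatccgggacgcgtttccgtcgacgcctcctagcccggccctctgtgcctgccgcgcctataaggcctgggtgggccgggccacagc
Klf4, chr4:55532476-55532725, minus strand: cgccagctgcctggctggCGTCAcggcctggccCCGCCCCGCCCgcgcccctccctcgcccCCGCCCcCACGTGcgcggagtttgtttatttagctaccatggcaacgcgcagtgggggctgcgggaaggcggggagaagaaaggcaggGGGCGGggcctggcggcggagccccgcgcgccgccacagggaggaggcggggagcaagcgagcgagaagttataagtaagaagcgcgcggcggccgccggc
Klf6, chr13:5861239-5861488, plus strand: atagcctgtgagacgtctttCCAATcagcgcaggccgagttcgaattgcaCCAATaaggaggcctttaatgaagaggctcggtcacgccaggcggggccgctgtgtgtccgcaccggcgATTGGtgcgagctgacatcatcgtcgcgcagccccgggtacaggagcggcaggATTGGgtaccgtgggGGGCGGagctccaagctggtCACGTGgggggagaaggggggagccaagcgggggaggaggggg
All 3 windows hold at least 1 GC box, with 2 in Klf2, 4 in Klf4 (of which 2 overlap) and 1 in Klf6. The Klf2 window alone of these 8 genes' windows holds the MEF2 motif, 118 to 109 bases before the start, whereas Klf4 and Klf6 hold an E box and Klf6 holds 4 CCAAT boxes.

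Over the 8 Klf genes with a RefSeq window, 6 windows held a GC box (GGGCGG), against 32.7% of all 32851 windows of the same length, and 6 held CACCC, against 52.0%. The core of a cyclic AMP response element (TGACG) was in 5 windows (17.8% of all), CCAAT in 3 (33.8%), the E box CACGTG in 2 (6.02%), the MEF2 motif in 1 (3.20%) and the FoxO motif GTAAACA in 1, that of Klf9 (3.17%). A pair of facing heat shock units (GAANNTTC) was in the Klf12 window only (6.69%), and neither the AP-1 motif TGACTCA (4.46%) nor a CArG box (1.47%) was in any of the 8. The share of G and C ran from 48.0% in Klf12 to 78.4% in Klf3, and was above the median of all windows (52.4%) in each of the 8 but that of Klf12. These matches describe the letters of the windows and say nothing of which factors bind there.

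**Figure D1:**
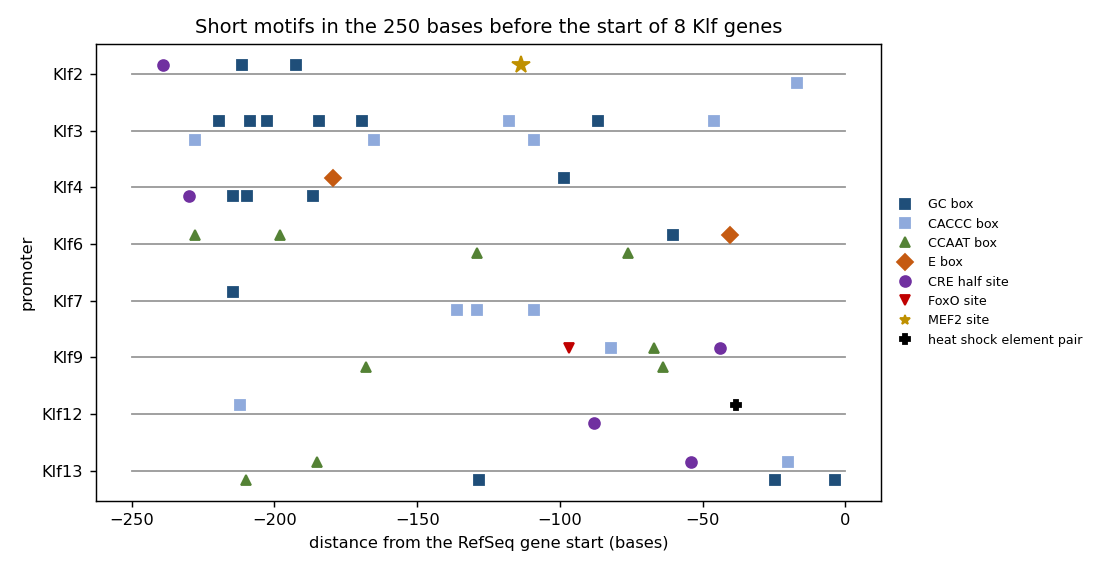
Positions of short motifs in the 250 bases before the RefSeq start of 8 Klf genes (x axis, distance from the start in bases, one line per gene). Symbols above a line are matches on the strand of the gene or palindromes, those below are on the opposite strand, and GC boxes stand in 6 of 8 windows while the MEF2 motif stands in that of Klf2 alone.

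The arrays and their labels were examined next. Well above background were 73.3% of probes for WT, 68.9% for AtmsKO and 77.7% for the third array, no spot was saturated, and all 3 arrays lay on the same slide in the same scan. In the order WT, AtmsKO and the third array, which holds for all series of 3 signals here, Atm had 87.0, 23.9 and 86.5 at one probe and 88.8, 16.3 and 49.0 at the other, so it was low on the AtmsKO array at both and on the third array at one. Mapk14 had 469, 558 and 616 at one probe and 295, 260 and 345 at the other, and was not lower on the third array, which carries the label Atmp38dKO and is therefore called the dKO-labelled array. Which exons were removed is not given in the sources used here, and a Mapk14 probe outside them can still read a shortened message. The Atm probe near the WT level on the third array (86.5 against 87.0) was low on AtmsKO (23.9). Whether the third array carries the genotype of its label was not tested. All 12 HSC markers (Kit, Ly6a, Slamf1 and others) were well above background on every array. Their summed signal, scaled to each array's 75th percentile, was 87.2, 84.7 and 76.2. All 4 genes of surface markers that any of the sources names as negative in the sort were above background on every array. Their summed scaled signal was 19.3, 19.5 and 21.1. Itga2b, the gene of CD41, is among them by the methods only, and Cd48 is not named in the series text. Cd48 had signals of 17.2, 21.2 and 34.0, Cd34 1694, 1666 and 2185, Itga2b 169, 120.2 and 167, and Flt3 79.4, 70.3 and 101.

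All 9 Klf genes were well above background on all arrays at their brightest probe, and 19 of their 20 probes were. Levels are given as signals in intensity units, and differences as log2 of the signals scaled to the 75th percentile of each array. Each gene is first described at its brightest probe. The error beside a difference, called the spot error, comes from the scanner software's error estimate, which covers the array only. That estimate followed the signal at bright probes, with 353 at 3529 for Klf4 and 761 at 7607 for Klf6 on WT. Each Klf probe was printed in 1 spot, so the error is not a spread measured between spots. For probes with 5 or more spots well above background, the median standard deviation between spots was 0.053 (log2) on every array. In bulk RNA, fewer cells with a transcript and less transcript per cell cannot be told apart.

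At the brightest probe 8 of 9 Klf genes had less signal in the dKO-labelled array than in WT, where 47.9% of all 30646 genes considered were lower. At least 1.5-fold lower were 5 of the 9 (Klf3, Klf4, Klf6, Klf7 and Klf9), against 10.6% of all genes. The median over the 9 genes was -0.63 on the log2 scale, against 0.02 over all genes. Klf2 was the exception, being slightly higher on this array. For AtmsKO against WT 6 of 9 were lower (49.0% of all 29041 genes), 2 of them (Klf4 and Klf7) at least 1.5-fold (10.1%). The median was -0.30 against 0.01. None of the 9 was at least 1.5-fold higher in either comparison with WT, where 10.8% and 9.98% of all genes were on the dKO-labelled array and on AtmsKO. With AtmsKO as the reference, the dKO-labelled array had 3 of the 9 (Klf3, Klf4 and Klf9) at least 1.5-fold lower (8.75% of all 30202 genes) and 1 (Klf2) at least 1.5-fold higher (10%). At 2-fold, Klf7 was lower on AtmsKO (3.98% of all genes) and Klf4 on the dKO-labelled array (4.41%), both against WT. None of the 9 was 2-fold higher against WT (3.81% and 3.95% of all genes on AtmsKO and the dKO-labelled array), or 2-fold lower or higher between the mutant arrays (3.62% and 3.7%). With another background correction (normexp) the numbers lower by 1.5-fold were 2 for the dKO-labelled array and 1 for AtmsKO against WT, and 0 between the mutant arrays, where 630 of 30646, 475 of 29041 and 580 of 30202 of all genes were that much lower. The median for AtmsKO against WT depended on the probes, at -0.0053 with the mean of all probes of a gene and -0.074 with messenger RNA probes on the gene's strand. Each array enters 2 of the 3 comparisons, which are therefore not independent of each other.

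**Figure D2:**
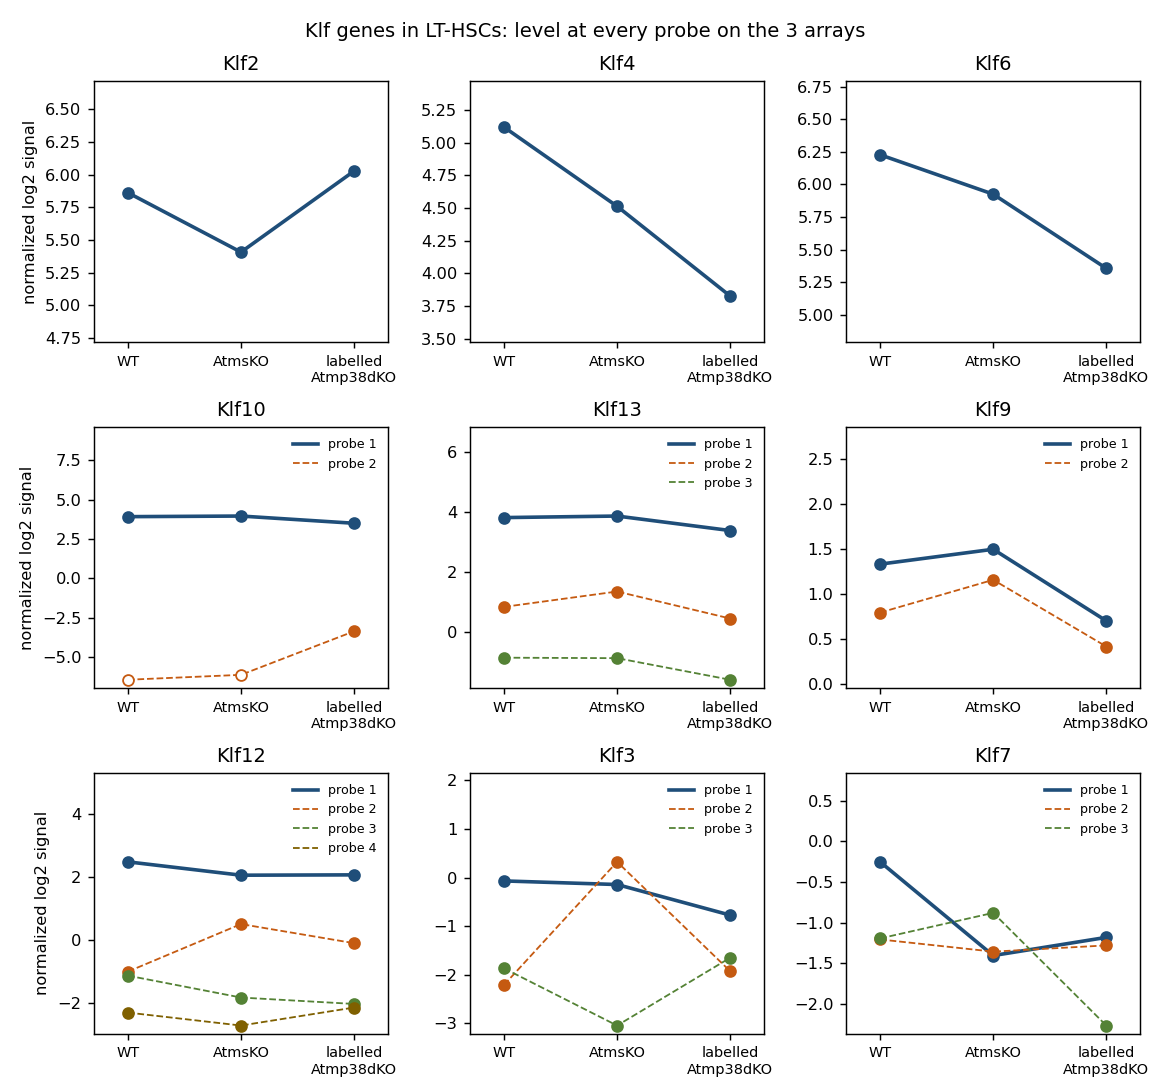
Normalized log2 signal (y axis, log2 of the signal minus the 75th percentile of the array, each panel with its own range) of every probe of the 9 Klf genes on the 3 arrays (x axis). The thick line is the brightest probe, dashed lines are other probes and open circles are values not well above background. Klf4 and Klf6 descend from WT to the dKO-labelled array, Klf2 is lowest on AtmsKO, and the probes of Klf3, Klf7 and Klf12 cross or diverge.

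Among the activators, Klf4 had the widest range of the 9 genes at its brightest probe. Its signal at the only probe (chr4:55540833-55540892, mm9, minus strand) was 3529 in WT, 2197 in AtmsKO and 1670 on the dKO-labelled array. WT was thus highest and the dKO-labelled array lowest. AtmsKO was 1.52-fold below WT (log2 difference -0.61 ± 0.20, error of the spots), and the dKO-labelled array was 2.45-fold below it (-1.29 ± 0.20). Between both mutant arrays the difference was -0.69 ± 0.20.

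Klf6, an early response gene of many tissues, followed the same order at its single probe (chr13:5869371-5869430, mm9, plus strand). The signals were 7607 on WT, 5849 on AtmsKO and 4830 on the dKO-labelled array. AtmsKO was 1.23-fold lower than WT (-0.30 ± 0.20), and the dKO-labelled array was 1.83-fold lower (-0.87 ± 0.20). Between both mutant arrays the difference was -0.57 ± 0.20.

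Klf2 behaved otherwise at its single probe (chr8:74845137-74845196, mm9, plus strand). Its signal was 5907 on WT, 4084 on AtmsKO and 7691 on the dKO-labelled array, so that AtmsKO was lowest and the dKO-labelled array highest. AtmsKO was 1.37-fold lower than WT (-0.46 ± 0.20), while the dKO-labelled array differed from WT by less than the spot error (0.17 ± 0.20). Between both mutant arrays Klf2 was 1.54-fold higher on the dKO-labelled array (0.62 ± 0.20). No other gene of the 9 was that much higher at its brightest probe in any of the 3 comparisons.

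Klf7, an activator known from axon growth, was dim and its probes disagreed. The brightest probe (chr1:64167512-64167571, mm9, minus strand) had signals of 85.3 on WT, 36.3 on AtmsKO and 51.9 on the dKO-labelled array, that is 2.23-fold and 1.91-fold lower than WT (-1.15 ± 0.21 and -0.93 ± 0.21). A probe 85.2 kb away gave 44.0, 37.5 and 48.5, with differences from WT of -0.15 and -0.07. The one 87.4 kb away gave 44.3, 52.3 and 24.5, which was 2.10-fold lower on the dKO-labelled array but higher on AtmsKO. The low value of Klf7 on AtmsKO thus rested on 1 of 3 probes, and that on the dKO-labelled array on 2 of 3. Both distant probes lie toward the 3′ end of the gene, whereas the brightest one reads its 5′ coding part, shown here because that probe alone carries the AtmsKO difference.
Klf7 probe: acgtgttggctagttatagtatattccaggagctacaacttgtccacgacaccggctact

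**Figure D3:**
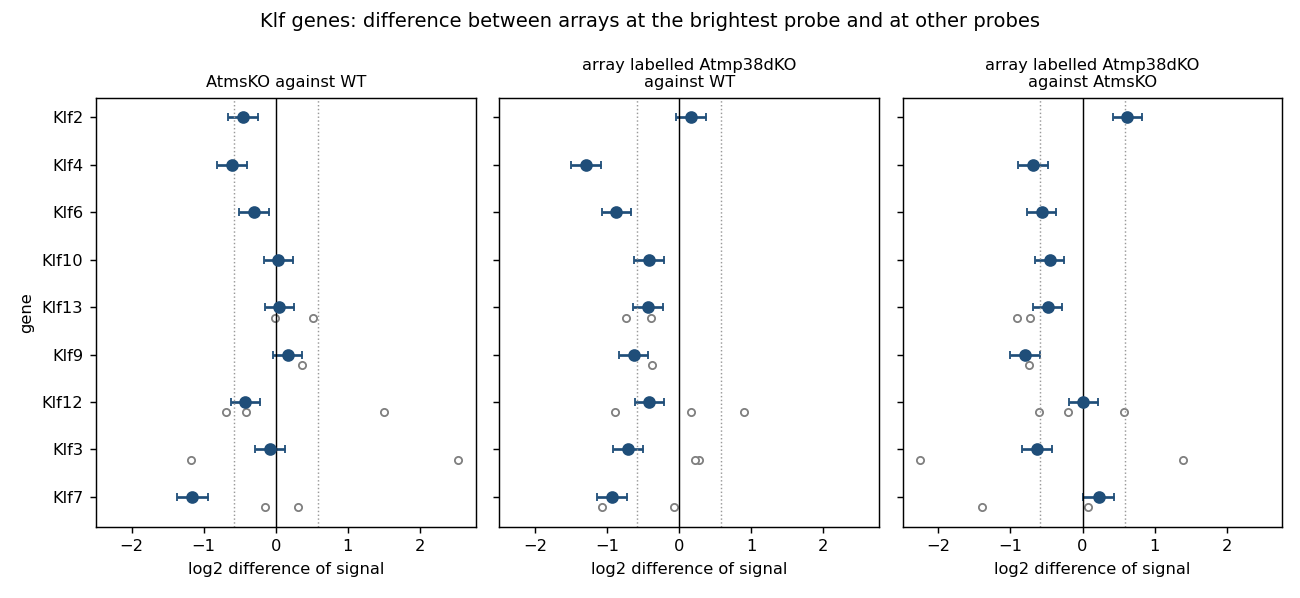
Log2 difference of signal (x axis) of the 9 Klf genes (y axis) in the 3 comparisons. Filled points are the brightest probe with the error of its spots, open points are further probes where above background on both arrays, and dotted lines mark 1.5-fold. Against WT, 8 of 9 filled points lie left of 0 for the dKO-labelled array, and open points of Klf3, Klf7 and Klf12 spread to both sides in at least 1 comparison.

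Of the Sin3-recruiting group, Klf9, which hormones such as glucocorticoids induce, gave the same directions at both of its probes. At the brighter probe (chr19:23242324-23242383, mm9, plus strand) the signals were 256 on WT, 272 on AtmsKO and 192 on the dKO-labelled array. The other probe, 1.91 kb away, gave 176, 215 and 157.5, so the dKO-labelled array was lowest and AtmsKO highest at each. The differences of the dKO-labelled array were -0.63 ± 0.20 and -0.38 ± 0.20 against WT, and -0.80 ± 0.20 and -0.74 ± 0.20 against AtmsKO. Only the brighter probe passed 1.5-fold against WT.

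Klf10, a TGF-β inducible early gene, had signals of 1531 on WT, 1490 on AtmsKO and 1329 on the dKO-labelled array at its brightest probe (chr15:38224255-38224314, mm9, minus strand). WT and AtmsKO differed by less than the spot error (0.04 ± 0.20), and the dKO-labelled array was lower than both, by -0.42 ± 0.20 and -0.46 ± 0.20. The remaining probe, 3.04 kb away and designed on another transcript variant, was not well above background on WT or AtmsKO. It had a signal of 11.54 on the dKO-labelled array, at least 1.87-fold higher than WT and at least 1.54-fold higher than AtmsKO, the opposite direction to the bright probe.

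Klf13, which drives Ccl5 in activated T cells, was read by 3 probes of different kinds. The brightest (chr7:71032482-71032541, mm9) comes from a cDNA on the plus strand, opposite to the gene, so what it reads cannot be told apart from an antisense transcript. It had signals of 1426, 1400 and 1225 in the order WT, AtmsKO and dKO-labelled array. A spliced probe of the gene's strand gave 180, 243 and 159. The third (chr7:71082854-71082913, mm9, minus strand) lies in the zinc finger coding part of the messenger RNA and gave 55.3, 51.9 and 38.5. On each of the 3 probes the dKO-labelled array was lowest, with differences from WT of -0.43, -0.39 and -0.74. The AtmsKO differences from WT were 0.05, 0.51 and -0.02.

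Zinc finger probes are of interest because the fingers are the part that Klf genes share. The Klf13 finger probe is printed beside that of Klf5, a Klf gene outside the 9, with identical bases of their ungapped alignment in capitals.
Klf13 probe: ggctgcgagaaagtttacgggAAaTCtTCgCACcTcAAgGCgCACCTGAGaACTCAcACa
Klf5 probe: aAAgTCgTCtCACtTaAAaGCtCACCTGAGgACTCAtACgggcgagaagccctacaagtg
They share 29 of the 40 bases that overlap, with a longest unbroken run of 8 bases. Over the 1144 pairs of probes of different Klf and Sp genes, no pair shared more than 29 of 60 bases or a run of more than 10. The Klf5 probe gave 30.4, 26.8 and 40.1 in the order WT, AtmsKO and dKO-labelled array, and was highest on the array on which the Klf13 probe was lowest.

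In the CtBP-binding group the probes of a gene disagreed in direction. Klf3, a repressor known in B cells, red cells and fat, had signals of 96.7, 87.1 and 68.9 at its brightest probe, which joins coding sequence of neighbouring exons (chr5:65213568-65214148, mm9, plus strand).
Klf3 probe: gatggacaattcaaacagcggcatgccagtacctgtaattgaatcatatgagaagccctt
There the dKO-labelled array was 1.63-fold lower than WT (-0.70 ± 0.21) and AtmsKO differed from WT by less than the spot error (-0.07 ± 0.21). At a probe 10.4 kb downstream the signals were 21.9, 120.4 and 30.9, and AtmsKO was 5.80-fold higher than WT (2.53 ± 0.22). At one 7.74 kb downstream they were 27.8, 11.6 and 37.5, and AtmsKO was 2.26-fold lower (-1.18 ± 0.28). AtmsKO was therefore highest of the 3 arrays at one downstream probe and lowest at the next, and the lower Klf3 value of the dKO-labelled array was seen at 1 of 3 probes.

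Klf12, a repressor of the gene of AP-2α, was read by 4 probes. The brightest (chr14:100548495-100548554, mm9, minus strand) comes from a cDNA at least 274.5 kb from the others and had signals of 563 on WT, 399 on AtmsKO and 492 on the dKO-labelled array, both mutant arrays being about equally lower than WT (-0.42 ± 0.20 and -0.41 ± 0.20). The messenger RNA probes did not share a direction. One gave 50.9, 137 and 110.1, 2.83-fold and 1.86-fold higher than WT. The next gave 46.6, 27.4 and 29.1, with differences from WT of -0.69 ± 0.22 and -0.89 ± 0.21. The last gave 20.8, 14.8 and 26.9. No direction for Klf12 held across its probes in either comparison with WT.

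Besides the brightest, 10 probes of the 6 genes with more than 1 probe were well above background on all arrays. Counted for each comparison separately, 6 of them went in the direction of the brightest probe, and these were not the same probes in all 3. Over the 19 probes well above background on all arrays, 14 were lower on the dKO-labelled array than on WT, against 49.6% of the 39967 probes of the array well above background in both. At least 1.5-fold lower were 8 of them, against 10.7% of all probes, and 1 was at least 1.5-fold higher, against 10.5%. For AtmsKO against WT 11 of the 19 were lower (47.6% of all probes) and 4 at least 1.5-fold lower (9.34%), while 2 were at least 1.5-fold higher (9.55%). Between the mutant arrays 13 were lower on the dKO-labelled array (51.3%), 9 at least 1.5-fold, and 2 were at least 1.5-fold higher (9.60% of all probes in either direction).

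Differences of 1.5-fold were rarer among bright genes than among all genes. Signals of at least 1000 on every array were seen at 2508 genes, Klf2, Klf4, Klf6, Klf10 and Klf13 among them (that of Klf13 from the opposite strand). In the comparison of the dKO-labelled array with WT, 2 of these 5 (Klf4 and Klf6) were lower by 1.5-fold or more, where 1.95% of bright genes were, and none was as much higher (0.0797%). Klf4 ranked 7 and Klf6 ranked 21 from the lowest difference of the 2508, and Klf13 and Klf10 ranked 85 and 93. For AtmsKO against WT Klf4 ranked 14, Klf2 ranked 21 and Klf6 ranked 66 from the lowest, and Klf4 was the one at least 1.5-fold lower, where 0.558% of bright genes were, while 0.12% were as much higher and none of the 5 was. Klf2 ranked 2 from the highest when the dKO-labelled array was set against AtmsKO, where 2 bright genes (0.0797%) were at least 1.5-fold higher, and Klf4 was 1 of the 29 bright genes (1.16%) at least 1.5-fold lower. The median of the bright genes was itself -0.05 in the comparison of the dKO-labelled array with WT, 0.04 in that of AtmsKO with WT and -0.11 between both mutant arrays.

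**Figure D4:**
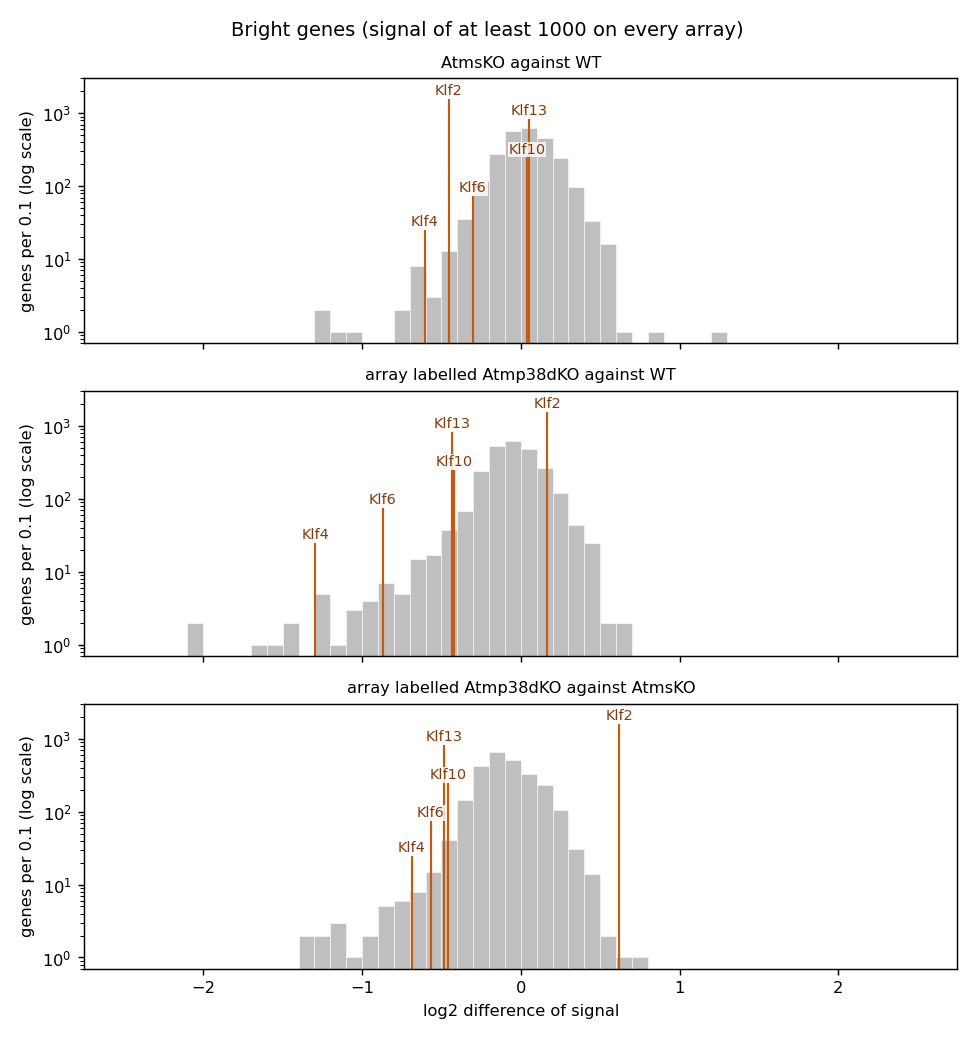
Log2 difference of signal (x axis) of the 2508 genes with a signal of at least 1000 on every array, as the number of genes per 0.1 (y axis, log scale), with the 5 bright Klf genes as labelled lines whose heights only separate the labels. Klf4 and Klf6 lie in the lower tail in both comparisons with WT, and Klf2 lies at the upper end between both mutant arrays.

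At their brightest probes, the other members of the Klf family were mostly higher than WT on the dKO-labelled array. Of 8 other Klf genes 5 were well above background on all arrays (Klf1, Klf5, Klf8, Klf11 and Klf16), and Klf14, Klf15 and Klf17 were not well above background on any. Klf11, closest to Klf10 in kind, had signals of 166, 165 and 259.6 and a difference of 0.43 between the dKO-labelled array and WT. Klf16 had 596, 551 and 638 (-0.12). Klf1, the erythroid factor, had 76.1, 106 and 118 (0.42), and Klf5 had the difference 0.18. Klf8 had 68.7, 108 and 87.8 (0.14), but its other probe went the opposite way (-0.26). Thus at the brightest probe 4 of the 5 were higher on the dKO-labelled array than on WT, where 47.9% of all genes were lower. The median of the 5 was 0.18, and none was past 1.5-fold. For AtmsKO against WT Klf8 was past it (9.98% of all genes were as much higher), at 0.73, with 0.53 at its other probe. The list's median was 0.07. Against AtmsKO 3 of the 5 were lower on the dKO-labelled array (50.5% of all genes), with a median of -0.08. Klf8 was at least 1.5-fold lower (-0.60, and -0.79 at its other probe), where 8.75% of all genes were.

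The Sp factors, which bind the same GC boxes, were read next. Sp8 was not well above background on any array. For AtmsKO against WT 6 of the other 8 were lower (49.0% of all genes), with a median of -0.25. Of the 9 Klf genes 6 were lower, with a median of -0.30. At least 1.5-fold lower were 2 of the 8 Sp genes (Sp1 at -0.78 and Sp7 at -0.91), against 10.1% of all genes. Their further probes were not, with -0.26 and 0.35 for Sp1 and -0.01 and 0.36 for Sp7. The brightest probes of Sp2 and Sp6 were lower (-0.55 and -0.05), and their further probes were higher (0.47 for Sp2, 2.35 and 0.004 for Sp6). For the dKO-labelled array against WT these 8 had a median of 0.08 and none was past 1.5-fold. The differences were -0.40 for Sp1, -0.36 for Sp2, 0.21 for Sp3, 0.06 for Sp4, 0.11 for Sp5, 0.09 for Sp6, -0.43 for Sp7 and 0.41 for Sp9. Of all genes 50.5% were lower on that array than on AtmsKO. Against AtmsKO all 8 were higher on that array, from 0.02 for Sp5 to 0.71 for Sp9, with a median of 0.22, where the 9 Klf genes had -0.49. Other probes did not share this direction, as 6 of 8 further Sp probes well above background on all arrays (1 of Sp1, 1 of Sp3 and all of Sp6 and Sp7) were lower in that comparison.

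Regulators, co-factors and targets known for Klf factors were taken from lists. In the comparison of the dKO-labelled array with WT, 10.6% of all genes were lower by 1.5-fold or more and 10.8% were higher. Of 18 upstream regulators, all well above background, 1 was that much lower and none was that much higher, with a median of -0.08. That gene was Map3k2, an upstream kinase of the ERK5 cascade that drives Klf2 and Klf4 through MEF2, with signals of 101 on WT, 62.4 on AtmsKO and 54.7 on the dKO-labelled array (-1.11 against WT), although its other probe went the opposite way. Foxo1, a forkhead activator of Klf2, had 118, 132 and 110.1 (-0.32), and Creb1 had 505, 396 and 402 (-0.54), with 1 of its 3 further probes above background in the same direction.

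Among 14 co-factors the comparison of the dKO-labelled array with WT had 1 lower (10.6% of all genes) and 1 higher (10.8%) by 1.5-fold or more. The median was -0.24. Kat2b, an acetyltransferase that acts with Klf factors, had signals of 45.2, 31.7 and 25.8 (-1.02). Wwp1, a ubiquitin ligase of Klf2 and Klf5, had 86.9, 148 and 152 with differences from WT of 0.84 and 0.60, and its 2 other probes were also higher on AtmsKO. Hdac3 was the widest of the list, with 165, 323 and 227 and a difference of 1.05 for AtmsKO against WT.

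Of 17 target genes 4 were lower (10.6% of all genes) and 2 higher (10.8%) by 1.5-fold or more in the same comparison. The median was -0.27. S1pr1, the receptor for exit from tissues that Klf2 activates in T cells, had signals of 115 on WT, 92.4 on AtmsKO and 48.2 on the dKO-labelled array (-1.47). Cdkn1a, the cell cycle inhibitor p21 that Klf4 and Klf6 activate and that is also a target of p53, had 213, 94.7 and 135, that is differences from WT of -1.10 for AtmsKO and -0.88 for the dKO-labelled array.

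Immediate early and heat shock genes were listed as well, since several Klf genes respond as early genes do. All 24 were well above background on every array. On the dKO-labelled array 23 of 24 were lower than on WT (47.9% of all genes), 17 at least 1.5-fold (10.6%), with a median of -1.03. The remaining 1 was at least 1.5-fold higher (10.8% of all genes). For AtmsKO against WT 19 were lower (49.0% of all genes), 5 at least 1.5-fold (10.1%), with a median of -0.17. There 5 were higher, 1 of them at least 1.5-fold (9.98%). The summed scaled signal of the 24 was 2209 on WT, 1872 on AtmsKO and 1136 on the dKO-labelled array. The widest members were Hspa1b with signals of 6429.8, 2691 and 1784, Hspa1a with 11889, 4782 and 3383, and Atf3 with 439.7, 267 and 131. Most of these genes were lower where Klf4 and Klf6 were, on both mutant arrays, and their part in the Klf result was not tested.

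**Figure D5:**
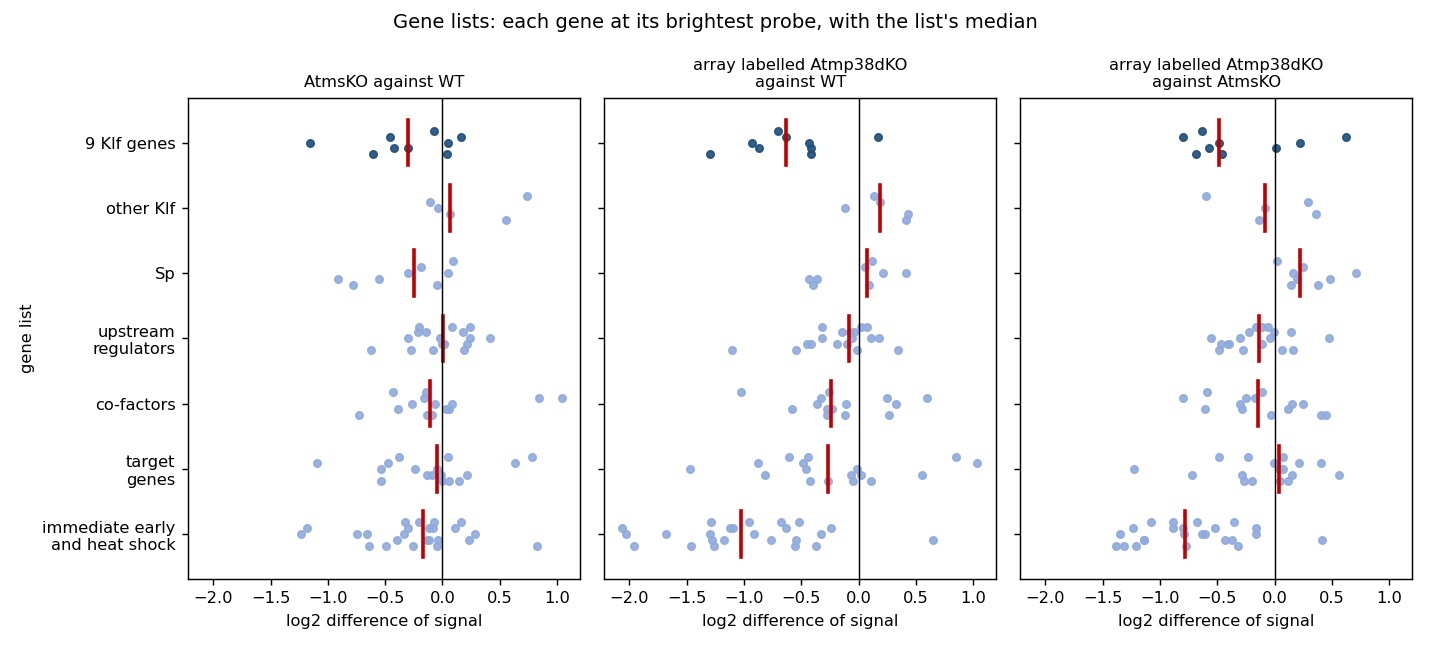
Log2 difference of signal (x axis) of each gene at its brightest probe, for 7 gene lists (y axis) in the 3 comparisons, over genes well above background on all arrays, with the list's median as a red bar. The 9 Klf genes have medians of -0.30, -0.63 and -0.49, and the immediate early and heat shock genes have -0.17, -1.03 and -0.78.

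The genes with profiles closest to single Klf genes were found from the distance between centred log2 values over the 3 arrays, among 16797 genes with a RefSeq name and well above background on all. With 3 arrays many genes lie close, 21 within 0.1 of Klf4, 75 of Klf6 and 29 of Klf7. Closest to Klf4 were Slc13a2os (distance 0.03), Crygs (0.04) and Dnajb1 (0.04). The heat shock co-chaperone Dnajb1 was bright, with signals of 21834 on WT, 13095 on AtmsKO and 10345 on the dKO-labelled array. Slc13a2os (13.1, 8.30 and 6.39) and Crygs (12.3, 7.82 and 6.06) were dim. Both lay near the lowest signals well above background on the 3 arrays (5.33, 6.12 and 4.97). Closest to Klf6 were Ndrg4 (0.01), Apba3 (0.02) and Alg9 (0.02), and closest to Klf7 were Abcc3 (0.01), Plekhm3 (0.03) and Myl4 (0.03). None of the 9 Klf genes was among the 3 nearest of Klf4, Klf6 or Klf7, the closest being Klf3 to Klf6 at 0.17.

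Markers of other blood and niche cells differed between arrays as well, and their part in the Klf values was not tested. Megakaryocyte markers (5 of 5 above background) had summed scaled signals of 19.1 on WT, 34.4 on AtmsKO and 22.8 on the dKO-labelled array, led by Pf4 with 1019.5, 2366 and 1536. Granulocyte and monocyte markers (9 of 9) had sums of 378, 390.2 and 341, of which most came from Itgam (signals of 33134, 32383 and 33895), a gene singled out after its values were seen. Against WT, 8 of these 9 were higher on AtmsKO and 5 on the dKO-labelled array, with medians of 0.18 and 0.16, for example Elane with 42.4, 77.6 and 93.8. Of all genes, 49.0% were lower than WT on AtmsKO and 47.9% on the dKO-labelled array. Erythroid markers had sums of 14.1, 13.3 and 14.9, most of it from Ermap (1256, 1130.3 and 1502), singled out in the same way. Against WT 6 of 6 were higher on the dKO-labelled array and 3 of 6 on AtmsKO, with Alas2 at 6.50, 20.4 and 26.3. The sums were 3.07, 3.28 and 3.16 for B cell markers and 6.68, 6.86 and 7.81 for T cell markers. Of 5 mast cell and basophil markers 2, 2 and 4 were well above background on WT, AtmsKO and the dKO-labelled array. Prss34 was highest on the last (6.79, 8.01 and 30.5) and Cpa3 was lowest there (24.2, 21.6 and 14.2). Endothelial markers had 3, 3 and 2 of 5 above background, Cdh5 and Flt4 being above it on none, and summed to 0.42, 1.70 and 0.43, with Kdr at 5.88, 114 and 18.1. Kdr has 3 probes, and none of its further probes was well above background on all arrays. Its WT signal lay near the lowest one well above background on that array (5.33). Stromal markers summed to 1.54, 1.44 and 1.41. Among the HSC markers Fgd5 (198, 146 and 69.8) and Hoxb5 (91.4, 107 and 34.0) were below WT by 1.5-fold or more on the dKO-labelled array.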

How the data were processed

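LT-HSCs of 3 genotypes were measured on 1 Agilent array each. The deposited scanner files, made for the authors with Agilent Feature Extraction 11.5.1.1 per the labels, hold an intensity per spot that is background-subtracted and spatially detrended but not normalized between arrays, with an error estimate and flags. Probe coordinates are on mm9. The deposited log2 table of the authors was within 0.02 of log2 intensity minus the array's 75th percentile for 99.8% of WT, 99.7% of AtmsKO and 99.6% of Atmp38dKO probes, and served as an alternative.

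Control and outlier spots were left out, spots of a probe were averaged (numpy 2.4.6, pandas 2.3.3, Python 3.11.15), and log2 intensity was scaled to each array's 75th percentile. Dim values were raised to the lowest value well above background on that array, the probe's own being kept if higher, and such differences are bounds. Scaling leaves relative levels only. The number of arrays limits the precision. Accessions matched to RefSeq (GRCm38.p6) named 32991 of 56600 probes, and 99.6% of 23915 messenger RNA probes lay on the strand of their gene. A comparison covered genes well above background on either array, counted at 1.5-fold if so on the brighter. Promoter windows and motifs came from RefSeq. Alternatives used normexp with an offset of 50 (limma 3.58.1, R 4.3.3), quantile or median scaling, no floor, other probe choices and a 2-fold limit. The functions were checked on simulated data.

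The Klf genes and the lists were chosen with earlier results of these data known. Named were all 9 Klf genes at all probes, the other Klf and Sp genes, Atm and Mapk14, of each further list up to 3 genes with the largest difference among those above background on all arrays, and for the 3 widest Klf genes the 3 nearest profiles. The values of 2 listed genes are not reported here.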

Additional observations from a re-analysis of the deposited data

How the results depend on the processing

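With 1 array per group, no array can be left out. No paired analysis was possible because the 3 arrays are single and nothing was tested. Under median scaling, quantile normalization, no floor, the authors' log2 values and a filter on both arrays, the counts and medians over the 9 Klf genes stayed within 1.5 times or within the spot error. Of these, no floor and the filter could not change a result, since the brightest probe of each Klf gene was well above background on all arrays. The authors' values use the same scaling. Differences of single genes stayed within the spot error in 168 of 189 cases, which include such settings. The other cases were 5 under normexp, 10 with the mean of all probes and 6 with messenger RNA probes on the gene's strand.

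The normexp background left 1 gene at least 1.5-fold lower in AtmsKO compared with WT, 2 in the comparison of the dKO-labelled array with WT (median -0.40) and 0 between the mutant arrays, where 475 of 29041, 630 of 30646 and 580 of 30202 of all genes were that much lower. At 2-fold, 1 gene was lower in each comparison with WT, and 0 were lower and 0 higher between the mutant arrays. The mean of all probes gave 1 and 3 genes lower against WT (median -0.0053 for AtmsKO). With messenger RNA probes on the gene's strand, chosen after seeing the data, 1 gene (Klf12) was higher in each comparison with WT, 5 were lower between the mutant arrays, and the AtmsKO median was -0.074. Klf2, Klf4 and Klf6 have 1 probe each and lie above the floor, so only scaling, background and source of values could move them. They kept their directions in all 3 comparisons under those, Klf4 ranging from -1.31 to -1.20, Klf6 from -0.89 to -0.74 and Klf2 from 0.15 to 0.28 between WT and the dKO-labelled array. Klf9 also kept its directions. Klf3, Klf7, Klf10 and Klf12 turned sign in at least 1 comparison with probes averaged or chosen otherwise, and Klf10 and Klf13 did so near 0 for AtmsKO compared with WT.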
